A study of Mus musculus with 6 samples.

Results

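The Gimap genes encode a family of small GTPases that are best known from lymphocytes. The family was chosen by the low level of Gimap7 in LSK cells of IkL/L mice, as read from the 3 IkL/L and 3 WT arrays described here. Its members were then taken by name, and all 8 genes so listed had at least 1 probe set of their own: Gimap1, Gimap3, Gimap4, Gimap5, Gimap6, Gimap7, Gimap8 and Gimap9. They are 8 of 18193 genes and their 11 probe sets are 11 of 45037. LSK cells are bone marrow cells that lack lineage markers and carry Sca1 and c-Kit, among them stem cells and multipotent progenitors. IkL/L mice are homozygous for a hypomorphic allele of Ikzf1, the gene of the zinc finger protein Ikaros, and WT mice carry no such allele. Both groups were of the C57BL/6 strain and 6 to 7 weeks old. Each IkL/L sample was sorted from 2 pooled mice and each WT sample came from 1 mouse, so that genotype and pooling cannot be told apart. The allele acts in all cells of the mouse, not in LSK cells alone.

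GTPases of this family bind guanine nucleotides through a shared domain, and some members sit on membranes inside the cell through a hydrophobic tail. Mutations in mouse or rat have tied the family to the survival of lymphocytes, and loss of Gimap5 also to disturbed blood stem cells in the mouse. The genes lie next to each other in 1 cluster, and the question asked was whether the other members differ between the genotypes as Gimap7 does.

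In the RefSeq annotation of GRCm38.p6 the cluster spanned 124 kb at chr6:48647186-48770851, in the order Gimap8, Gimap9, Gimap4, Gimap6, Gimap7, Gimap1, Gimap5 and Gimap3. Gimap6 and Gimap3 lay on the minus strand and the other 6 genes on the plus strand. Promoter windows from RefSeq, of 250 bases before and 50 bases from the start onwards, matched all 8 genes, with 2 starts for Gimap8. The windows of Gimap7 and of its neighbour on each side, Gimap6 and Gimap1, are shown because Gimap7 stood apart from both. They lie at chr6:48718371-48718670 (plus strand) for Gimap7, chr6:48708195-48708494 (minus strand) for Gimap6 and chr6:48738797-48739096 (plus strand) for Gimap1. Capitals mark each match to AGGAA on either strand, a sequence that Ikaros is known to bind and whose GGAA core factors of the Ets family bind as well.
Gimap7: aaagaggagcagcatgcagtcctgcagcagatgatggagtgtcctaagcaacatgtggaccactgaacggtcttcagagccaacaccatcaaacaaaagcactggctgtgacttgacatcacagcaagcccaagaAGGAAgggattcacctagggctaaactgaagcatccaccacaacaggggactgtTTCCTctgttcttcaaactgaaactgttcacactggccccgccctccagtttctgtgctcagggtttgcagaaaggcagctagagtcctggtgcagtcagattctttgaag
Gimap6: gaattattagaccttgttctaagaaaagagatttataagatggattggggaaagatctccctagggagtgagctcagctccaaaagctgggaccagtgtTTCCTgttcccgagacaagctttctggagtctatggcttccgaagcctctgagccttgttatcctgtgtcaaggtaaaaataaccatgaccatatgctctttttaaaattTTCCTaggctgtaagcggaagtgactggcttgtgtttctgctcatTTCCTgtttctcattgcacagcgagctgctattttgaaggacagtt
Gimap1: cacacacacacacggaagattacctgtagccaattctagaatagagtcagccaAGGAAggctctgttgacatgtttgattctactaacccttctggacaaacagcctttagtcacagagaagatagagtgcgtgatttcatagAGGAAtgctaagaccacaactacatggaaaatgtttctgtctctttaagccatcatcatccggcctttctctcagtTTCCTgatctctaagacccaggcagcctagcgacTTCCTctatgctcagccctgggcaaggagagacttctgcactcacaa

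The motif AGGAA, read on both strands, was found in 8 of the 9 member windows, against 66.7% of all 32851 windows of this length. Gimap7 had 2 matches, which begin at positions -115 and -61 from the start, and 33.7% of all windows held at least 2. Gimap6 had 3 matches, where 13.2% of all windows held at least 3, and Gimap1 had 4, where 4.44% held at least 4. Gimap4 and Gimap9 had 3 matches, Gimap3 and Gimap5 had 1, and Gimap8 had 1 at only the second of its starts. A longer core of Ikaros sites, TGGGAA, was found in 1 window, that of Gimap3, against 25.6% of all windows, and no match to one motif overlapped a match to the other. These matches describe the letters alone, and binding was not measured in these files.

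**Figure D1:**
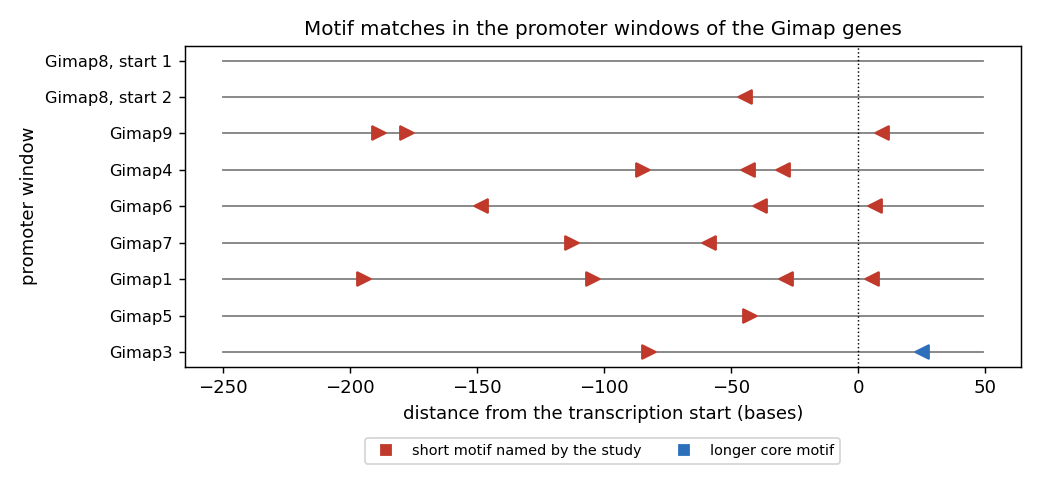
Matches to AGGAA (red) and TGGGAA (blue) in the promoter windows of the 8 Gimap genes, by the distance of their centre from the transcription start in bases (horizontal axis), with triangles pointing right for the strand of the gene and left for the other. Gimap7 has 2 matches, fewer than its neighbours Gimap6 with 3 and Gimap1 with 4.

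The values are log2 values made by RMA, which sets all arrays to a common distribution, so that they are relative to the other RNA of the same cells. Array medians ran from 4.79 to 4.88, and a value near or below them cannot be told from background. The arrays correlated at 0.986 to 0.995 over all probe sets. Kit, the receptor for stem cell factor and 1 of the markers used in the sort, stood at 11.07 to 11.35 on IkL/L arrays and at 11.21 to 11.50 on WT arrays. Ikzf1 stood at 10.77, 10.85 and 10.93 on IkL/L arrays and at 11.57, 11.59 and 11.44 on WT arrays (log2 difference -0.68, SE 0.10, adjusted p = 0.0307 in limma). A second, dimmer probe set of Ikzf1 stood at 5.56, 5.69 and 5.81 on IkL/L arrays and at 5.87, 5.86 and 5.95 on WT arrays and did not pass (-0.21, adjusted p = 0.622). The place of these probes with respect to the mutated sequence was not analysed, so this does not check the labels. Of 7 stromal markers, Col1a1, Col1a2 and Sparc were high on WT 1 and WT 2, while Cxcl12 and Vcam1 were lower on WT 2 than on WT 3. Col3a1 and Lepr lay below the array medians throughout. Col1a1 stood at 3.75 to 4.16 on IkL/L arrays and at 6.36, 5.47 and 4.43 on WT arrays 1, 2 and 3. In sorted bulk cells, fewer cells of a type and less RNA per cell cannot be told apart.

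Gimap7, a small GTPase of lymphocytes whose human form stimulates its own hydrolysis of GTP by pairing with a second molecule, was the member that stood apart. On probe set 1425084_at it stood at 5.49, 6.12 and 5.90 on IkL/L arrays 1, 2 and 3, and at 7.84, 7.95 and 7.72 on WT arrays 1, 2 and 3. All 3 IkL/L values lay below all 3 WT values, with a gap far wider than the spread within either group. The means were 5.84 ± 0.32 in IkL/L and 7.84 ± 0.11 in WT cells (SD, n = 3 each), a log2 difference of -2.00 or a level 4.01-fold lower. Only 4 of the 18193 genes had a more negative difference. Because this difference chose the family, it is given as a description, and no p-value is given for it. A second probe set of Gimap7, 1444283_at, did not show it, with 3.73, 3.78 and 3.86 on IkL/L arrays and 3.46, 4.18 and 3.85 on WT arrays (log2 difference -0.04). All 6 of its values lay below the array medians, so that the second probe set cannot be told from background in either group.

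Gimap7 was not joined by the other 7 genes in its difference. None of the 7 passed an adjusted p of 0.05 in limma in either direction, 0 of 7 also had an unadjusted p under 0.05, and their adjusted p ran from 0.621 to 0.97. Their log2 differences ran from -0.40 for Gimap8 to 0.60 for Gimap4, with 3 below 0 and 4 above 0 and a median of 0.03, against -0.02 over all genes. The lowest end of any of their 95% intervals was -1.05, so that none of the intervals reached the difference measured for Gimap7. That difference chose the family, so setting the intervals beside it is a description. With Gimap7 counted, 1 of the 8 genes was past the threshold as lower and 0 as higher. Over all genes 0.242% were called lower and 0.748% higher, and nothing is read from the share among the 8, since Gimap7 chose them. The groups did not overlap in 1 of the 8 genes, again Gimap7, while they did not overlap in 17.2% of all genes.

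**Figure D2:**
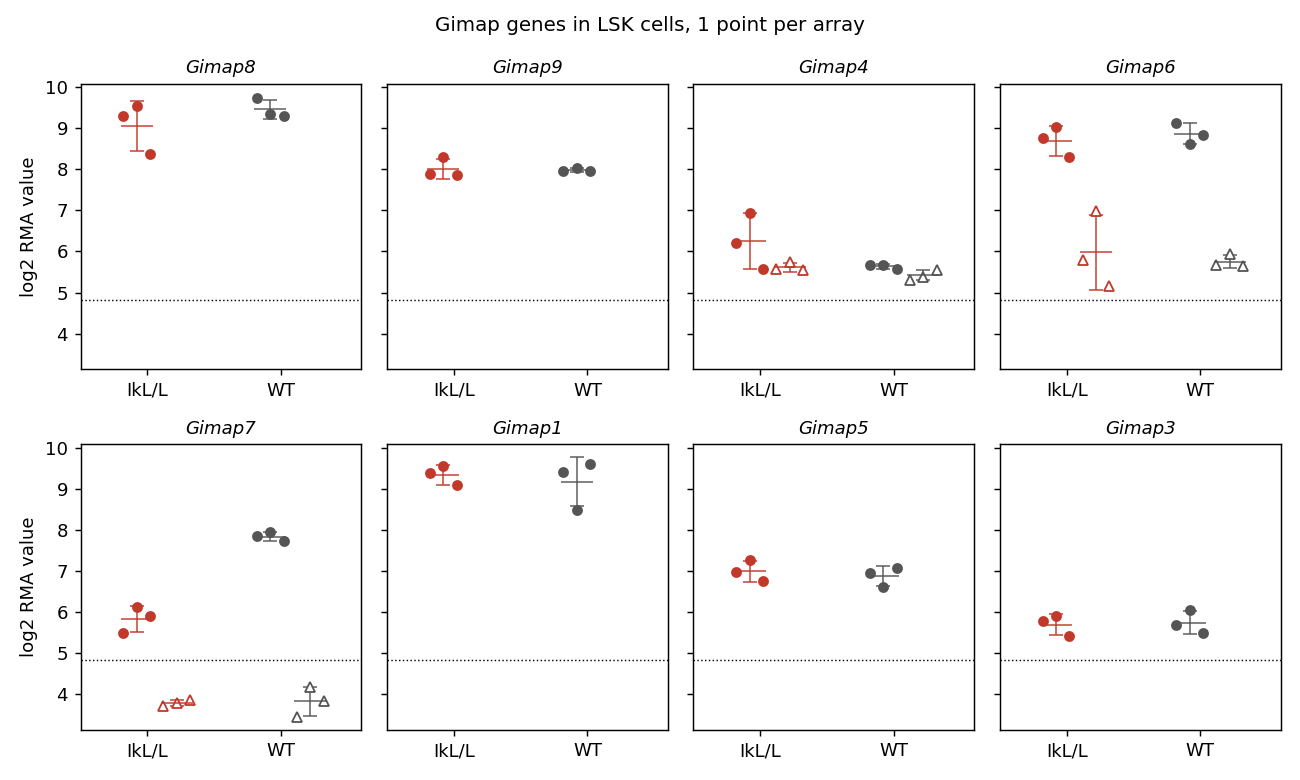
Log2 RMA value (vertical axis, not starting at 0) of the 8 Gimap genes in chromosomal order on each IkL/L array (red) and each WT array (grey), bars giving the mean of the 3 arrays with its SD. Circles are the brightest probe set of a gene, open triangles its other probe set, and the dotted line is the median over all probe sets at 4.83. The circles of Gimap7 are apart between the groups, at 5.49 to 6.12 in IkL/L and 7.72 to 7.95 in WT cells.

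Gimap6 and Gimap1 flank Gimap7 in the cluster. Gimap6, which binds the autophagy protein Gabarapl2, stood at 8.75, 9.03 and 8.30 on IkL/L arrays and at 9.13, 8.62 and 8.84 on WT arrays. The groups overlapped, and the log2 difference was -0.17 with a 95% interval from -0.64 to 0.30 (adjusted p = 0.866 in limma). Its other probe set, 1456762_at, gave 0.23, with 5.80, 6.97 and 5.17 on IkL/L arrays and 5.66 to 5.94 on WT arrays. Gimap1, which mature T and B cells of the mouse need, stood at 9.39, 9.57 and 9.08 on IkL/L arrays and at 9.42, 8.50 and 9.60 on WT arrays. It overlapped between the groups, with WT 2 as the lowest array, and gave 0.17 with an interval from -0.47 to 0.81 (adjusted p = 0.903). A fall of the size measured for Gimap7 lies outside the intervals of both neighbours, which is a description, since that size chose the family.

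Gimap5 and Gimap3, relatives that have been found with proteins of the Bcl2 family, lay at the far end of the cluster. Gimap5, whose loss depletes lymphocytes in mouse and rat, stood at 6.98, 7.26 and 6.75 on IkL/L arrays and at 6.95, 6.62 and 7.08 on WT arrays, a difference of 0.11 with an interval from -0.27 to 0.50 (adjusted p = 0.891 in limma). Gimap3 stood at 5.78, 5.90 and 5.41 on IkL/L arrays and at 5.68, 6.06 and 5.50 on WT arrays, a difference of -0.05 with an interval from -0.46 to 0.36 (adjusted p = 0.96). In both genes the groups overlapped throughout. The sequences of the probes were not analysed here, so that signal from a related transcript was not tested for any member.

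Gimap8, which carries several GTPase domains in 1 protein, opens the cluster. It stood at 9.29, 9.52 and 8.37 on IkL/L arrays and at 9.73, 9.35 and 9.30 on WT arrays, a difference of -0.40 with an interval from -1.05 to 0.25 (adjusted p = 0.754 in limma). IkL/L 3 was the low array, and the other 2 IkL/L values lay within or just below the WT values. Gimap9 stood at 7.88, 8.29 and 7.87 on IkL/L arrays and at 7.96, 8.04 and 7.95 on WT arrays, a difference of 0.03 with an interval from -0.27 to 0.33 (adjusted p = 0.97).

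Gimap4, which speeds up the death of T cells in the mouse, had the most positive difference. On probe set 1424375_s_at it stood at 6.21, 6.94 and 5.58 on IkL/L arrays and at 5.67, 5.68 and 5.57 on WT arrays. IkL/L 3 lay among the WT values while IkL/L 1 and IkL/L 2 lay above them, and the SD was 0.68 in IkL/L and 0.06 in WT cells. The difference was 0.60 with an interval from -0.07 to 1.28 and did not pass (adjusted p = 0.621 in limma). The ending of this probe set marks probes that more than 1 transcript can share. The other probe set, 1424374_at, stood at 5.57, 5.75 and 5.55 on IkL/L arrays and at 5.32, 5.39 and 5.55 on WT arrays, with a difference of 0.20 (adjusted p = 0.66).

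The genes around the cluster did not pass the test either. Of the 20 measured genes nearest to it, 10 on each side, 0 were called higher and 0 lower in limma and 3 had an unadjusted p under 0.05, as had 2034 of all 18193 genes. Their median log2 difference was -0.08, and the groups did not overlap in 6 of the 20, against 17.2% of all genes. The 3 with the smallest p were Repin1, a zinc finger protein (-0.44, adjusted p = 0.107), Igf2bp3, an RNA-binding protein of fetal tissue (-0.52, 0.111), and the transcribed pseudogene AI854703 next to Gimap8 (-0.70, 0.177). AI854703 stood at 5.90, 5.92 and 5.59 on IkL/L arrays and at 6.77, 6.19 and 6.53 on WT arrays. On the other side of the cluster Tmem176b gave 0.13 and Tmem176a 0.21.

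**Figure D3:**
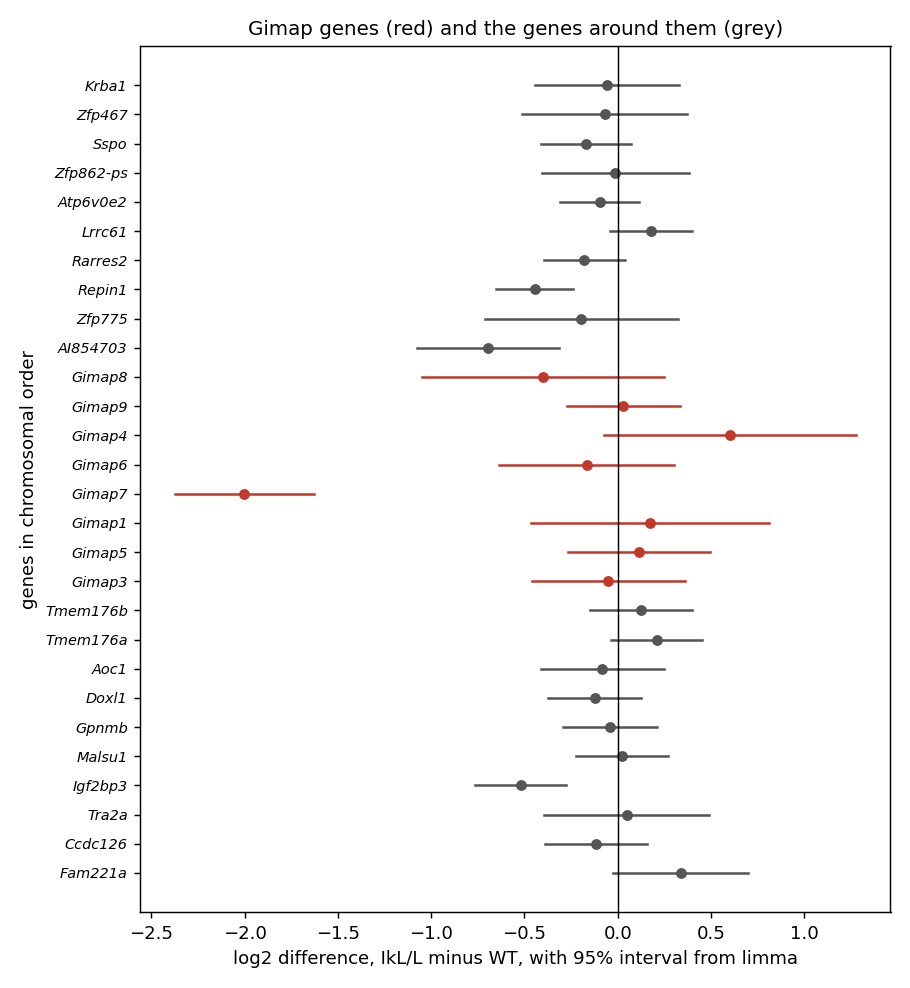
Log2 difference of IkL/L minus WT (horizontal axis) with its 95% interval from limma for the 8 Gimap genes (red) and the 20 measured genes around them (grey), from top to bottom in chromosomal order. Gimap7 at -2.00 lies apart from its neighbours Gimap6 at -0.17 and Gimap1 at 0.17.

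Within the IkL/L group the members other than Gimap7 varied together. IkL/L 2 was the highest and IkL/L 3 the lowest of the 3 arrays in all 7 of them as deposited, an order that 20.1% of all genes had. Among genes at or above the median level, where all 7 lie, it was 22.4%. The gap between IkL/L 2 and IkL/L 3 ran from 0.42 in Gimap9 to 1.36 in Gimap4 on the log2 scale. A gap of at least 0.42 was found in 7.12% of all genes and in 9.51% of those at or above the median level. IkL/L 1 and IkL/L 3 were nearly equal in Gimap9, and with the arrays centred on their medians the order held in 6 of the 7 genes, against 18.6% of all genes. In Gimap7 IkL/L 2 was also the highest array, but IkL/L 1 was the lowest. The WT arrays had no such order, with 4 different orders among the 7 genes. The interferon-inducible GTPases, another family of GTPases of immune defence, had a median gap of 0.42 between the same arrays with 9 of 10 genes above 0, and the medians of the other lists lay between 0.04 for T cell markers and 0.35 for stromal markers. As deposited, the same order was also held by 7 of 13 genes of proteins that bind Gimap proteins or act beside them, and by 7 of 20 neighbours. It was held by 4 of 8 endothelial, 3 of 6 B cell and 2 of 12 T cell markers. What sets IkL/L 2 and IkL/L 3 apart was not tested.

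**Figure D4:**
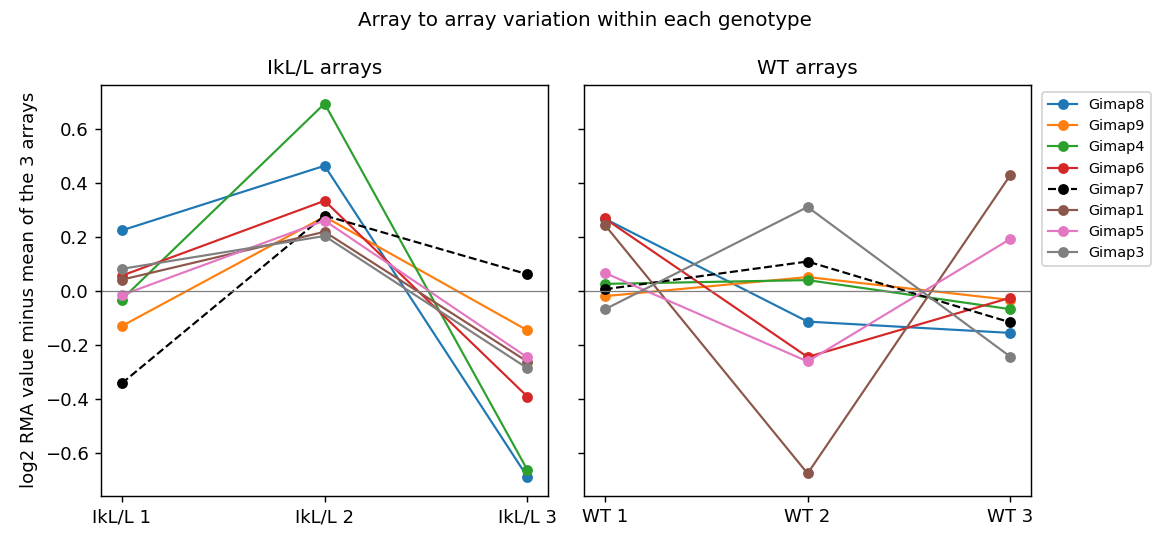
Log2 RMA value of each Gimap gene minus its mean over the 3 arrays of a genotype (vertical axis) on the IkL/L arrays (left) and the WT arrays (right), with lines joining the values of a gene and Gimap7 dashed. Arrays of a group have no order. On IkL/L arrays the 7 solid lines are highest on IkL/L 2 and lowest on IkL/L 3, with a gap of 0.42 to 1.36.

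The profile of Gimap7 over the 6 arrays was set beside those of other genes. This likeness takes in the difference between the genotypes that chose the family, so it is a description and no separate result. Likeness was taken as the root mean square difference between values centred on the mean of each gene, over 11270 genes outside the family at or above the median level. The nearest relative was Gimap8, at 0.90, and 1038 of those genes were nearer to Gimap7 than it was. Gimap6 came next at 0.97, with 2970 genes nearer, and Gimap4 was the farthest at 1.35, with 10888 nearer. The 5 nearest genes, which this choice makes low in IkL/L cells, were the nuclear receptor Hnf4a (0.27), the receptor P2ry10 of lymphoid cells (0.34), H2-Ob (0.38), a chain that modulates antigen loading, the deiminase Padi4 (0.39) and the cytokine Clcf1 (0.42). Hnf4a stood at 6.89, 7.04 and 6.84 on IkL/L arrays and at 8.89, 8.49 and 8.45 on WT arrays.

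Of 11 measured genes of early lymphoid progenitors, 1 was called lower in limma and 10 did not pass. All 11 had a difference below 0, as had 10106 of all 18193 genes, and the median was -0.81, against -0.02 over all genes. In limma 9 of the 11 had an unadjusted p under 0.05, as had 2034 of all 18193 genes. The groups did not overlap in 10 of the 11, against 17.2% of all genes. Of the 11, 3 lay under the array medians. The gene called was Rag2, which with Rag1 cuts DNA to assemble antigen receptors (-1.13, adjusted p = 0.0167). Rag2 stood at 4.81, 4.79 and 4.57 on IkL/L arrays and at 5.92, 6.04 and 5.60 on WT arrays, so that its IkL/L values lay at or below the array medians and the size of its difference is that of the measured values only. Il7r, the receptor for the lymphoid cytokine IL-7, stood at 5.94, 6.46 and 5.48 on IkL/L arrays and at 7.54, 7.79 and 6.53 on WT arrays, and did not pass (-1.33, adjusted p = 0.241). Far brighter genes of the list did not pass either. They were Dntt (-0.79, adjusted p = 0.0532 in limma), Satb1 (-0.83, 0.0711), Notch1 (-0.41, 0.122) and Flt3 (-0.89, 0.132). Dntt stood at 11.83, 11.60 and 11.54 on IkL/L arrays and at 12.48, 12.60 and 12.24 on WT arrays. Whether a different share of lymphoid-primed cells has a part in the level of Gimap7 was not tested.

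Markers of mature lymphocytes, stroma and endothelium were read on the same arrays. For the counts below, 0.748% of all genes were called higher and 0.242% lower in limma, and 2034 of all 18193 genes had an unadjusted p under 0.05. Of 12 measured T cell markers 0 were called in limma, 1 had an unadjusted p under 0.05, and 7 lay under the median level. The smallest p were those of Ccr7 (-0.38, adjusted p = 0.447), Cd4 (0.25, 0.573) and Lat (0.32, 0.646). The mean of the 12 per array was 4.79 to 4.87 in IkL/L and 4.75 to 4.85 in WT cells. The dimmest was Cd3g, a chain of the T cell receptor complex, at 2.90 to 3.33 in IkL/L and 3.02 to 3.26 in WT cells. The brightest was Lat, at 7.85 to 8.37 in IkL/L and 7.55 to 7.94 in WT cells. Of 6 NK cell markers 0 were called and 0 had an unadjusted p under 0.05 (Klrd1 -0.32, Ncr1 -0.12 and Nkg7 -0.09 had the smallest), with means of 5.12 to 5.28 in IkL/L and 5.12 to 5.40 in WT cells. Of 6 B cell markers 1 was called higher, Ms4a1 (2.38, adjusted p = 0.0165 in limma), and 3 had an unadjusted p under 0.05, with list means of 5.55 to 5.99 in IkL/L and 5.02 to 5.17 in WT cells. Under the median level lay 3 of these 6. The 7 stromal markers had 0 calls, 2 with an unadjusted p under 0.05 and a median of -1.11 (Col1a1 -1.43, Lepr -0.32 and Sparc -1.24 had the smallest p), with list means of 4.81 to 5.21 in IkL/L and 5.36 to 6.42 in WT cells. Under the median level lay 3 of the 7, among them Lepr, at 3.77 to 4.09 in IkL/L and 4.10 to 4.40 in WT cells. Col1a1 lay below the array medians on IkL/L arrays, so that the size of its difference is uncertain. Of 8 endothelial markers 2 were called higher, Cdh5 (2.50, adjusted p = 0.00274) and Tek (1.05, 0.0171), 5 had an unadjusted p under 0.05 and 0 had a difference below 0, the median being 0.65, with list means of 6.69 to 6.97 in IkL/L and 5.79 to 6.12 in WT cells. On WT arrays Ms4a1 (3.32 to 3.54) and Cdh5 (3.60 to 3.99) lay below the array medians, so that the size of their differences is uncertain. Without WT 1 and WT 2, the arrays on which Col1a1, Col1a2 and Sparc were high, the difference of Gimap7 was -1.89. That leaves WT 3 as the only WT array. On it Cxcl12 stood at 5.86 and Vcam1 at 6.52, above their 4.64 and 5.30 on WT 2, so nothing is read from this about stroma. The 7 measured markers of LSK and stem cells had 0 calls, 2 with an unadjusted p under 0.05 and a median of -0.08, with the smallest p for Flt3 (-0.89, adjusted p = 0.132), Procr (0.69, 0.409) and Gata2 (0.30, 0.631). The part of other cell types in the difference of Gimap7 was not tested.

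Proteins that bind Gimap proteins or act beside them did not pass. Of 13 measured genes 0 were called in limma and 2 had an unadjusted p under 0.05, as had 2034 of all 18193 genes. The median of the 13 was 0.12. The 2 genes were Bcl2l11, a death-promoting member of the Bcl2 family (-0.55, adjusted p = 0.169), and Gabarap, an autophagy protein (0.40, 0.467). Nfatc1, a calcium-regulated transcription factor, came next (-0.31, 0.613). Gabarapl2, the partner of Gimap6, stood at 8.73, 8.60 and 8.72 on IkL/L arrays and at 8.40, 8.44 and 8.62 on WT arrays (0.20, adjusted p = 0.651). The interferon-inducible GTPases had 0 of 10 genes called, 0 also at an unadjusted p under 0.05, and a median of 0.03, with the smallest p for Mx1 (-0.29, adjusted p = 0.69), Gbp3 (0.22, 0.764) and Gbp7 (0.11, 0.844).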

How the data were processed

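RNA of sorted LSK cells was hybridised to Affymetrix mouse genome arrays after amplification of 100 ng of total RNA per the labels. The deposited log2 values were computed by the authors with RMA (submitters' notes: R 2.8), and the study's methods state a joint normalization with thymocyte arrays. Gene names came from GEO's platform annotation, updated by Entrez number (RefSeq, GRCm38.p6): a single gene was named for 34945 probe sets and more than 1 for 932, while 9160 had no entry. A gene was read from its own probe set with the highest mean over the 6 arrays. IkL/L and WT were compared with limma 3.58.1 in R 4.3.3 (lmFit, eBayes, genotype only, two-sided), p-values were adjusted by Benjamini-Hochberg across the whole table of 45037 probe sets, and calls were made at 0.05. The 3 arrays per group limit the precision, and p-values measure only the spread between these samples. The fit was tested on simulated data. It recovered 34% of 1.5-fold, 94% of 2-fold and 100% of 4-fold changes, and 6.82% of its calls were false. Differences near 1.5-fold can thus be missed. These shares describe the simulated data only, and larger differences can be missed in genes that vary more between arrays. Il7r, 2.51-fold lower with an SE of 0.35, did not pass (adjusted p = 0.241 in limma), while Tek, 2.07-fold higher with an SE of 0.13, did. Gimap1, Gimap4 and Gimap8 had SEs of 0.28 to 0.29, so a 2-fold change in these members can be missed too. The members and gene lists were chosen with earlier results of these data known. Named were the members, Ikzf1, list and neighbour genes that passed or else had the 3 smallest p, and the 5 nearest profiles to Gimap7. Other genes named were chosen after their values were seen. Alternatives covered normalization, filters, moderation, weights, the replicate number as a block, the reading of a gene and left-out arrays.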

Additional observations from a re-analysis of the deposited data

How the results depend on the processing

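Over 15 alternatives, 0 of the other 7 members passed in any of them, 0 members and 0 of the 20 neighbours were called higher, and 0 neighbours were called lower, though filters on low values left as few as 12 of the 20. The count of members past the threshold as lower, which Gimap7 alone makes up and from which nothing is read since Gimap7 chose the family, was 1, and 0 without both WT 1 and WT 2, an alternative chosen after seeing the data that assumes the lone WT array to vary like the others (Gimap7 -1.89). Its difference was -2.14 to -1.83 with any 1 array left out and -1.02 with the mean of its probe sets, which takes in the dim one. Gimap4 stayed above 0 (0.26 to 0.94) and Gimap8 below 0 (-0.63 to -0.05), while the signs of Gimap1, Gimap3, Gimap5, Gimap6 and Gimap9 changed with the setting. With the replicate number as a block the count of members lower was 1 and Gimap7 gave -2.00, and no call changed among members and neighbours. Deviations of same-numbered arrays correlated at -0.04, -0.14 and 0.07, so no shared deviation by number was seen. Whether same-numbered samples were handled together was not tested. Gimap3 and Gimap4 fall out where probe sets need a mean of 6. RMA gives no detection call, so signal over background is unknown for dim probe sets.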
